A study of Homo sapiens with 24 samples.

Results

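RNA recovered with biotinylated miR-17 from DU145 cells, an established human prostate cancer cell line, was compared with RNA recovered with the non-targeting control sequences NC1 and NC2. The comparison takes 9 of the 24 arrays of the series, chosen by their labels: 3 of the miR-17 pulldown, 3 of the NC1 pulldown and 3 of the NC2 pulldown, with both controls weighted equally. A further 3 arrays of a miR-638 pulldown were made alongside and serve here for comparison; the other 12 arrays, of total RNA from cells given mimics, were not used. All pulldown groups share 1 untreated background, DU145 cells grown in DMEM with serum, and differ by the labels only in the biotinylated RNA they received. The labels name it miR-17 without an arm, and do not tell whether the replicates of a group came from different cultures; a p-value here reflects only how far the arrays of a group differ, which could be technical variation alone. No RNA from before each pulldown was measured, so an RNA that is higher after a pulldown may also be higher in those cells.

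MicroRNAs guide Argonaute proteins to messenger RNAs through their seed, a short stretch near the 5′ end that pairs with the target, and the bound message is repressed or degraded. In a biotinylated microRNA pulldown the labelled microRNA is transfected, captured on streptavidin after lysis, and the RNAs that come with it are measured. miR-17 is a member of the cluster transcribed as MIR17HG, which MYC and E2F factors activate and which is known for promoting the cell cycle and survival in many cancers, with cell cycle inhibitors, E2F factors and TGF-beta pathway genes among its reported targets.

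The sequences below, taken from the RefSeq annotation of build GRCh38.p14, show what the bait can pair with: capitals mark the seed, bases 2 to 8. The first is the 5p arm of miR-17, at chr13:91350618-91350640 on the plus strand, and the second the 3p arm, at chr13:91350655-91350676 on the same strand.
miR-17-5p: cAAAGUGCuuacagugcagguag
miR-17-3p: aCUGCAGUgaaggcacuuguag
miR-20a-5p: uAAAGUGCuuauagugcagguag
miR-20b-5p: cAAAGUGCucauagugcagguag
miR-93-5p: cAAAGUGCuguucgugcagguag
miR-106a-5p: aAAAGUGCuuacagugcagguag
miR-106b-5p: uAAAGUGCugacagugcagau
miR-638: aGGGAUCGcgggcggguggcggccu
The 5p arm shares its seed with 8 of the 2370 mature entries of the table, itself included, among them the family members shown; the 3p arm and miR-638 each have another seed. The 5p arm is the one to which most reported targets belong. Target sites in the messages were not searched here.

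On the arrays 20962 to 22610 of 47323 probes were detected, and arrays of 1 group correlated at 0.979 to 0.995 against 0.966 to 0.991 between groups. Of the DU145 markers, all 7 passed the filter, whereas only KRT8 and KRT18 of 15 luminal and basal prostate markers did. Of the blood cell markers 4 of 12 and of the fibroblast and endothelial markers 2 of 12 passed the filter; the nearest of these to the threshold was LYZ, at a log2 difference of 0.63 (adjusted p = 0.0567). The summed linear level of the 4 blood markers ranged from 2230 to 2540 with miR-17, 1630 to 2180 with NC1 and 2000 to 2880 with NC2, and that of the 2 fibroblast markers from 94.1 to 130, 83.0 to 131 and 91.9 to 133. The keratin KRT8 was higher with miR-17 by 0.53, and the summed level of KRT8 and KRT18 was 2660 to 2790 with miR-17, 1820 to 2030 with NC1 and 1660 to 2460 with NC2; the part of any of these in the results was not tested. The control arrays numbered 2 stood apart from the other control arrays for several nuclear RNAs, and some results are given with and without both. NC1 array 2 was also the lowest control array for cytosolic ribosomal proteins (-0.22), mitochondrial ribosomal proteins (-0.22) and the respiratory chain (-0.25). These are medians over a list of each gene's level minus its mean over the 4 groups.

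Against the mean of both controls, 1084 of 13101 genes tested were higher with miR-17 (8.27%) and 790 were lower (6.03%), at an adjusted p under 0.05. Differences were mostly small: 87 genes were at least 2-fold higher and 97 at least 2-fold lower, and the median of all genes was 0.00 on the log2 scale. Against NC1 alone 1014 genes were higher (7.74%) and 717 lower (5.47%); against NC2 alone 878 were higher (6.70%) and 575 lower (4.39%). These comparisons share the miR-17 arrays. NC2 itself differed from NC1 in 614 genes (4.69%), with 401 higher (3.06%) and 213 lower (1.63%), so the text below favours genes that passed against the mean and against each control in 1 direction: 736 in all (5.62%), 531 higher (4.05%) and 205 lower (1.56%). Of these, 84 were at least 2-fold higher and 20 at least 2-fold lower than the mean of both controls. For 529 of the higher genes (4.04%) all 3 miR-17 arrays lay above all 6 control arrays, and for 204 of the lower ones below them (1.56%); over all 13101 genes the arrays lay above in 1218 (9.3%) and below in 970 (7.4%). With each array scaled to a common median in place of quantile normalization, the share of calls that were higher moved from 58.6% to 69.7% against NC1 and from 65.3% to 76.2% for NC2 against NC1. In the plot of difference against level, the genes past the test are found over the whole range of levels.

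**Figure D1:**
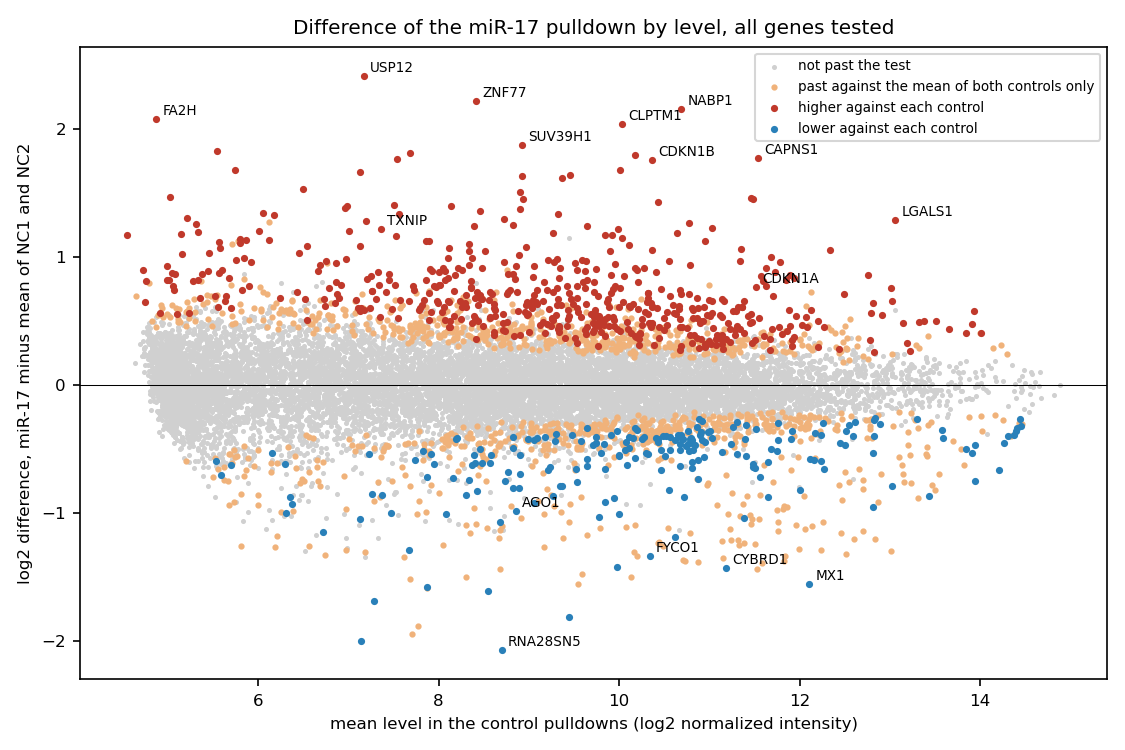
Each point is 1 of 13101 genes: the horizontal axis gives its mean level over the 6 control arrays (log2 normalized intensity), the vertical axis its log2 difference, miR-17 minus the mean of NC1 and NC2. Red and blue mark the 531 genes higher and the 205 lower against each control, orange those past the test against the mean only; USP12 lies highest at 2.42 and RNA28SN5 lowest at -2.07.

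The gene with the largest increase was USP12, a deubiquitinase. Its level read 9.61, 9.46 and 9.71 with miR-17, 6.96, 7.25 and 7.11 with NC1, and 7.17, 7.31 and 7.24 with NC2. The miR-17 arrays lie far above all control arrays, a 5.35-fold difference (log2 2.42, SE 0.11, adjusted p = 8.55e-09). NABP1, a single-stranded DNA-binding protein of DNA repair, read 12.82, 12.87 and 12.87 with miR-17, 10.83, 10.64 and 10.83 with NC1, and 10.54, 10.66 and 10.65 with NC2. Its arrays lay close together in every group (SD 0.03, 0.11 and 0.06), and it had the smallest adjusted p of the genes named here, 2.45e-10, for a log2 difference of 2.16. ZNF77, a zinc finger protein, read 10.71, 10.56 and 10.65 with miR-17 against 8.18 to 8.68 over the 6 control arrays (log2 difference 2.22). FA2H, which adds a hydroxyl group to the fatty acids of sphingolipids, was detected on all 3 miR-17 arrays, at 7.07, 6.89 and 6.88, but on only 1 of the 6 control arrays. A control group that is not above background gives only a bound, and FA2H was at least 3.60-fold higher with miR-17 (adjusted p = 1.95e-07). Of the groups compared, the miR-17 arrays gave all but 1 of the detections that counted towards the filter for FA2H. Its p-value rests on control values mostly not above background.

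The remaining 11 of the 15 largest increases ran from 2.04 down to 1.67 on the log2 scale. SUV39H1, which methylates histone H3 at lysine in silent chromatin, read 10.76, 10.81 and 10.80 with miR-17 and 8.77 to 9.03 in the controls (log2 difference 1.88). PBK, a mitotic kinase, read at least 11.96 on the miR-17 arrays and 9.96 to 10.45 in the controls (1.80). CAPNS1, the small subunit shared by the calpain proteases, read 13.35, 13.28 and 13.33 with miR-17 and 11.46 to 11.63 in the controls (1.78), and its other probe gave 1.77. CFL2, a cofilin that severs actin filaments, rose by 1.81, with 1.28 from its other probe, and RASL11B, a small GTPase of the Ras family, rose by 1.83. The remaining members of the 15 were CLPTM1 (2.04), LRRC28 (1.77), CDKN1B (1.76), ELAPOR1 (1.68), a membrane protein of endosomes and lysosomes, TMEM9B (1.68) and CAMTA2 (1.67), a calmodulin-binding transcription activator. No miR-17 array of these genes overlaps a control array, as the naming rule required.

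**Figure D2:**
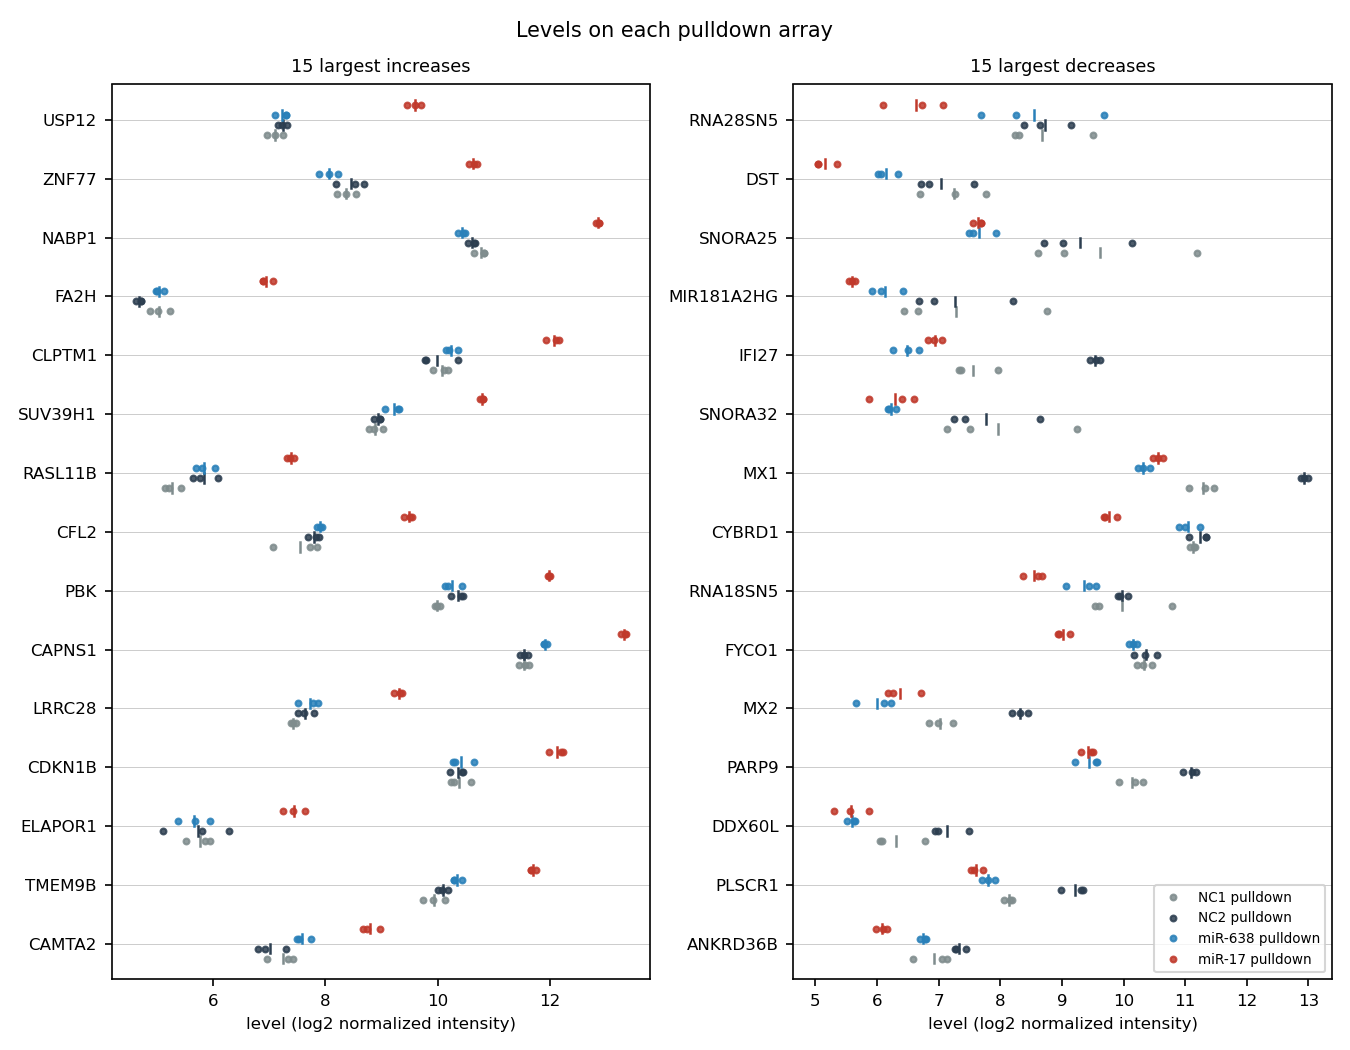
Level of the 15 genes with the largest increase (left) and the 15 with the largest decrease (right) on each pulldown array, in log2 normalized intensity; points are arrays, ticks the mean of 3. On the left the red miR-17 points stand alone to the right; on the right the miR-638 points lie near those of miR-17 for MX1, MX2, IFI27 and SNORA25.

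Whether the known partners of miR-17 came with it was asked with 3 lists of 93 genes reported as targets of the miR-17 family, of which 81 were measured. Of these, 17 were higher (21.0%, against 8.27% of all genes) and 10 lower (12.3%, against 6.03%), and 54 did not pass. Against each control in 1 direction 14 were higher (17.3%, against 4.05% of all genes). In the same test 5 of the 81 were lower, where 1.56% of all genes were, so both directions were above the share of all genes. The median of all 81 was 0.03 on the log2 scale, beside 0.00 for all genes: most reported targets were not moved. Leaving out both control arrays numbered 2 gave 22 higher (27.2%, against 10.6% of all genes) and 12 lower (14.8%, against 9.56%); leaving out 1 array at a time gave 13 to 20 higher and 7 to 12 lower, while in the authors' value table, where 1.49% of all genes were higher and 1.07% lower, 5 of 79 were higher and 3 lower. The calls of DAPK3, PFKP, RBL2, SOD2, WEE1, TP53INP1, PIK3R1, ABCA1, APP and DCBLD2 were each lost under at least 1 other alternative. The other 12, among them CCNE2, had no probe past the filter. The lists were compiled with earlier results of these data known and are not independent evidence.

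In the target list of cell cycle brakes and drivers, 6 of 20 measured genes were higher (30.0%) and 2 lower (10.0%). The median of this list was -0.04 on the log2 scale. Not every member, as described below, is a cell cycle gene in the strict sense. CDKN1B, the kinase inhibitor p27 that halts cells before DNA synthesis, read 12.19, 12.23 and 11.98 with miR-17, 10.30, 10.25 and 10.60 with NC1, and 10.45, 10.43 and 10.22 with NC2. That is 3.39-fold higher (log2 1.76, SE 0.11, adjusted p = 1.37e-07), with 1.66 from its other probe, and it is the largest increase among the reported targets. CDKN1A, the related inhibitor p21 and a p53 target, read 12.34, 12.29 and 12.24 with miR-17, 11.59, 11.69 and 11.76 with NC1, and 11.60, 11.11 and 11.38 with NC2 (log2 difference 0.77, SE 0.09, adjusted p = 6.3e-05). E2F5, a repressive E2F factor, read 11.18, 11.20 and 11.21 with miR-17 and 9.92 to 10.47 over the control arrays (0.92). The groups of these genes do not overlap. WEE1, the kinase that holds back mitosis, was higher by 0.39 and GPR137B, a lysosomal membrane protein, by 0.54. TP53INP1, a p53-induced stress protein, was higher by 0.46 against the mean but not against NC2 alone (0.33, adjusted p = 0.0882).

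The same list holds genes that did not move or went the other way. Of the E2F family, E2F1, E2F2 and E2F3 gave differences of -0.08, 0.16 and -0.03, with adjusted p of 0.856, 0.228 and 0.857. CCND1, the D-type cyclin often listed beside them, gave -0.17 (adjusted p = 0.328), and RB1, the pocket protein that restrains E2F factors, -0.21 (adjusted p = 0.432). RBL2, the pocket protein p130, fell by 0.44, but its call was lost when any 1 miR-17 array was left out. BTG3, an antiproliferative protein, was lower in all 3 miR-17 arrays, at 11.13, 11.20 and 11.21 against 11.81 to 12.18 in the controls (log2 difference -0.82, adjusted p = 1.04e-05; other probe -0.43). HBP1, a transcriptional repressor that is a reported target, read 8.67, 8.29 and 8.46 with miR-17 and 8.03 to 8.48 in the controls, and these overlap (adjusted p = 0.193).

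Of the signalling targets 4 of 29 measured were higher (13.8%) and 3 lower (10.3%); without miR-17 array 2 these were 2 and 3. DKK3, a secreted antagonist of Wnt signalling, read 10.56, 10.28 and 10.56 with miR-17 and 9.50 to 9.87 in the controls (log2 difference 0.82). RHOC, a small GTPase of cell movement, was higher by 0.61, and PIK3R1, a regulatory subunit of PI3 kinase, by 0.53, though its other probe gave 0.10. DAPK3, a death-associated kinase, was higher by 0.50, with overlapping arrays; its call was lost when any 1 miR-17 array was left out. PHLPP2, a phosphatase that switches off AKT, was lower: 8.52, 8.63 and 8.61 with miR-17 against 9.15 to 9.54 in the controls (-0.79, adjusted p = 7.61e-05). MAPK9, the kinase JNK2, fell by 0.53 and DCBLD2, a membrane receptor, by 0.47; all 3 also differed from each control. Of the TGF-beta pathway members, TGFBR2, the type II receptor, gave 0.08 (adjusted p = 0.526), SMAD4 gave -0.16 (0.383), SMAD7 gave -0.10 (0.598) and BMPR2 gave -0.19 (0.139). STAT3 gave 0.37, with an adjusted p of 0.0613.

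Of the targets in stress, apoptosis, autophagy and metabolism 7 of 32 were higher (21.9%) and 5 lower (15.6%). TXNIP, which binds thioredoxin and limits glucose uptake, read 8.56, 8.51 and 8.68 with miR-17, 7.36, 7.40 and 7.65 with NC1, and 7.12, 7.38 and 7.25 with NC2, a 2.33-fold difference (log2 1.22, adjusted p = 1.12e-05). MICA, a stress ligand that natural killer cells recognise, read 9.34, 9.29 and 9.46 with miR-17 and 8.13 to 8.63 in the controls (0.99), and its relative MICB was higher by 0.47. ARID4B, a subunit of a chromatin repressor complex, had a large difference and a large spread: 9.81, 9.63 and 9.19 with miR-17, 7.88, 6.92 and 8.36 with NC1, and 8.81, 8.06 and 8.81 with NC2 (1.40, SE 0.26; 1.07 without both control arrays numbered 2). TNFSF12, the cytokine TWEAK, gave 1.34 from one probe and 0.14 from the other. NAGK, a sugar kinase, was higher by 0.60, and SOD2, the mitochondrial superoxide dismutase, by 0.47, against the mean of both controls only. Lower were APP (-0.41), ULK1 (-0.38), VEGFA (-0.36), ABCA1 (-0.36) and PFKP (-0.31), of which only ABCA1, the cholesterol exporter, passed against each control. BCL2L11, the proapoptotic protein BIM and a widely cited miR-17 target, gave 0.01 with an adjusted p of 0.985.

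**Figure D3:**
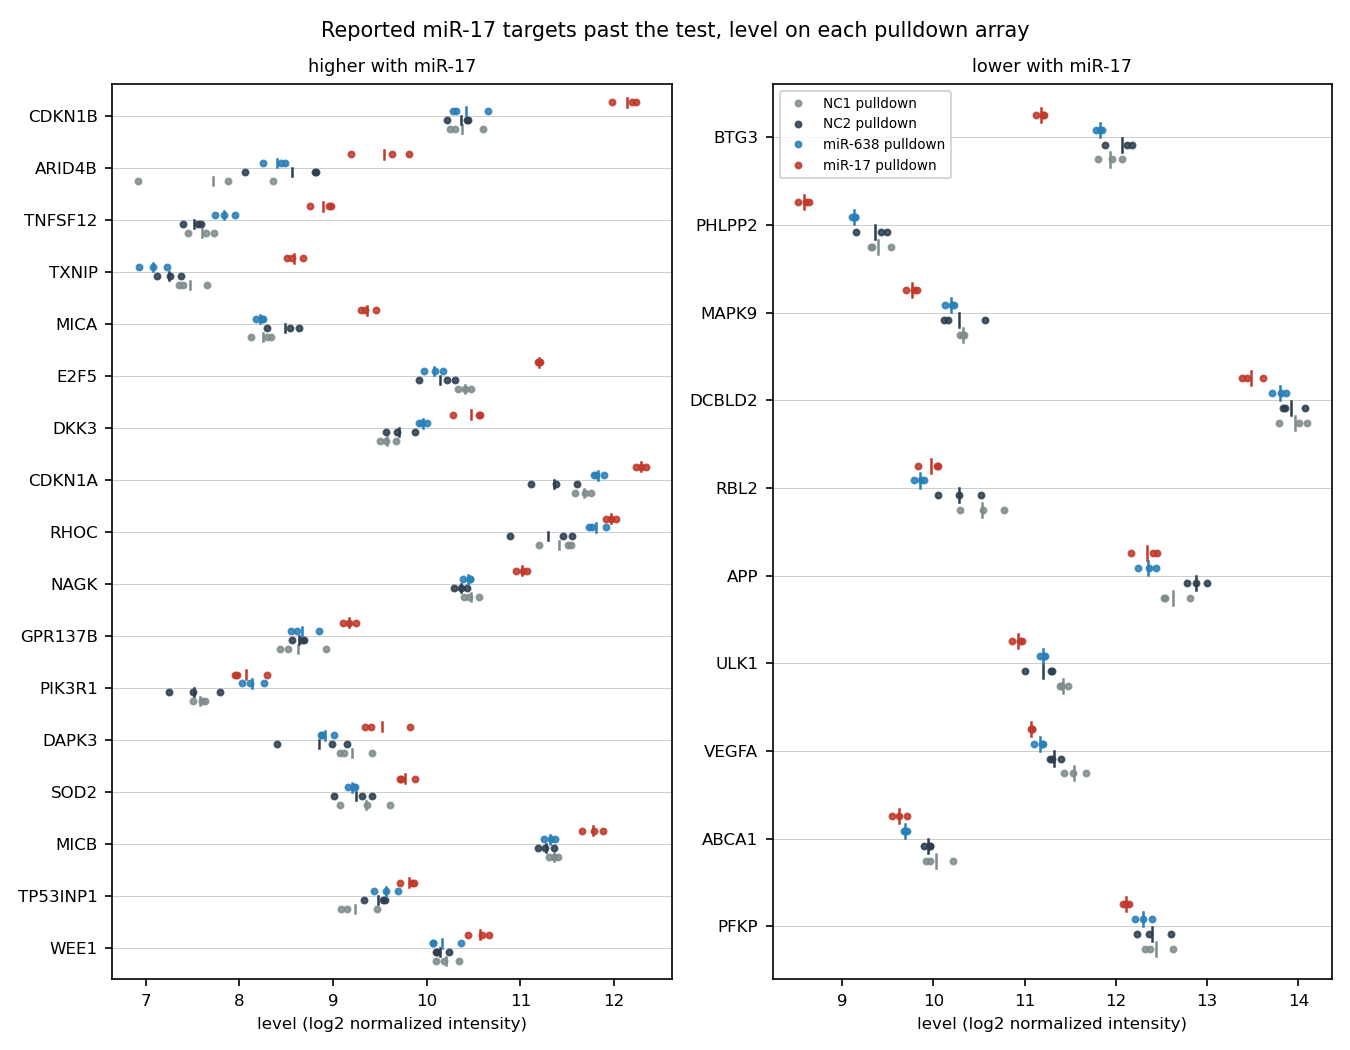
Level of the 17 reported miR-17 targets that were higher (left) and the 10 that were lower (right) on each pulldown array, in log2 normalized intensity; points are arrays, ticks the mean of 3. CDKN1B, TNFSF12, TXNIP, MICA and E2F5 show the clearest gaps, ARID4B the widest spread among control arrays.

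The proteins that carry out microRNA silencing are the other partners of the bait, but the arrays read only their messages. How much of each protein came with the bait was not measured. Of 25 measured genes of the microRNA machinery 2 were higher and 1 lower (4.0%), against 8.27% and 6.03% of all genes. AGO1, an Argonaute protein that holds the microRNA, was the member that fell: 7.88, 7.81 and 7.94 with miR-17, 8.99, 8.76 and 9.02 with NC1, and 8.72, 8.88 and 8.79 with NC2. Its groups do not overlap, and it was 1.97-fold lower (log2 -0.98, SE 0.10, adjusted p = 1.18e-05); it was also lower than in the miR-638 pulldown, by a log2 difference of -1.04. AGO2, the slicing Argonaute, gave -0.02 (adjusted p = 0.962), AGO3 gave -0.28 (0.334) and AGO4, detected on 2 of 3 miR-17 and 3 of 6 control arrays, gave 0.32 (0.329). TNRC6A and TNRC6B, the scaffold proteins that recruit the deadenylases, gave 0.13 (0.422) and 0.29 (0.124). DICER1, DROSHA and DGCR8, which process microRNA precursors, gave 0.10 (0.610), -0.01 (0.980) and -0.18 (0.357). DCP2, the decapping enzyme, was higher by 0.63 (adjusted p = 0.000649), against each control.

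Of the lists described here, interferon-stimulated genes had the highest share of lower RNAs: 44 of 57 measured fell (77.2%, against 6.03% of all genes) and 1 rose, with a median of -0.70. These are antiviral genes that cells switch on through STAT factors, for example in response to double-stranded RNA. The size of the fall depended on the control; the deposited tables exchange the names NC1 and NC2, so which of the controls is the higher one is not settled, here and wherever a value against NC1 or NC2 alone is given. The median was -0.23 against NC1 and -1.12 against NC2; NC2 stood above NC1 by a median of 0.86, with 47 members higher. MX1, an antiviral GTPase, read 10.47, 10.64 and 10.55 with miR-17, 11.32, 11.47 and 11.06 with NC1, and 12.87, 12.93 and 12.98 with NC2. MX1 was thus lower with miR-17 than with either control, by 0.73 (against NC1) and 2.37 (against NC2) on the log2 scale. The miR-638 arrays read lower still, at 10.23, 10.42 and 10.31, but did not differ from miR-17 past the test (log2 difference 0.24, adjusted p = 0.184). OAS2, which makes the signal for RNase L, read 7.41, 7.82 and 7.43 with miR-17, 7.91, 7.39 and 7.49 with NC1, and 9.73, 9.62 and 9.96 with NC2; its fall against the mean, -1.13, came with a difference of -0.04 against NC1 (adjusted p = 0.903). Against each control 16 of the 57 were lower, among them MX1, IFI27 (-1.61), PARP9 (-1.19) and OAS3 (-0.87).

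Measured on each array as the median over the list of a gene's level minus its mean over the 4 groups, the interferon genes stood at -0.34 to -0.25 with miR-17, -0.48 to -0.43 with miR-638, -0.09 to -0.07 with NC1 and 0.78 to 0.81 with NC2. The order was the same on all arrays: NC2 highest, then NC1, then miR-17, then miR-638. The count of lower members was 37 to 44 whichever single array was left out, and the authors' value table gave 16 of 47. Genes of MHC class I antigen presentation were lower as well, 9 of 17 measured being lower (52.9%); 3 passed against each control. TAP1, the peptide transporter, gave -0.38 against NC1 and -1.05 against NC2. PSMB9, an immunoproteasome subunit, gave -0.84 against NC1, -1.17 against NC2 and -0.81 against miR-638; its other probe gave -0.57.

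**Figure D4:**
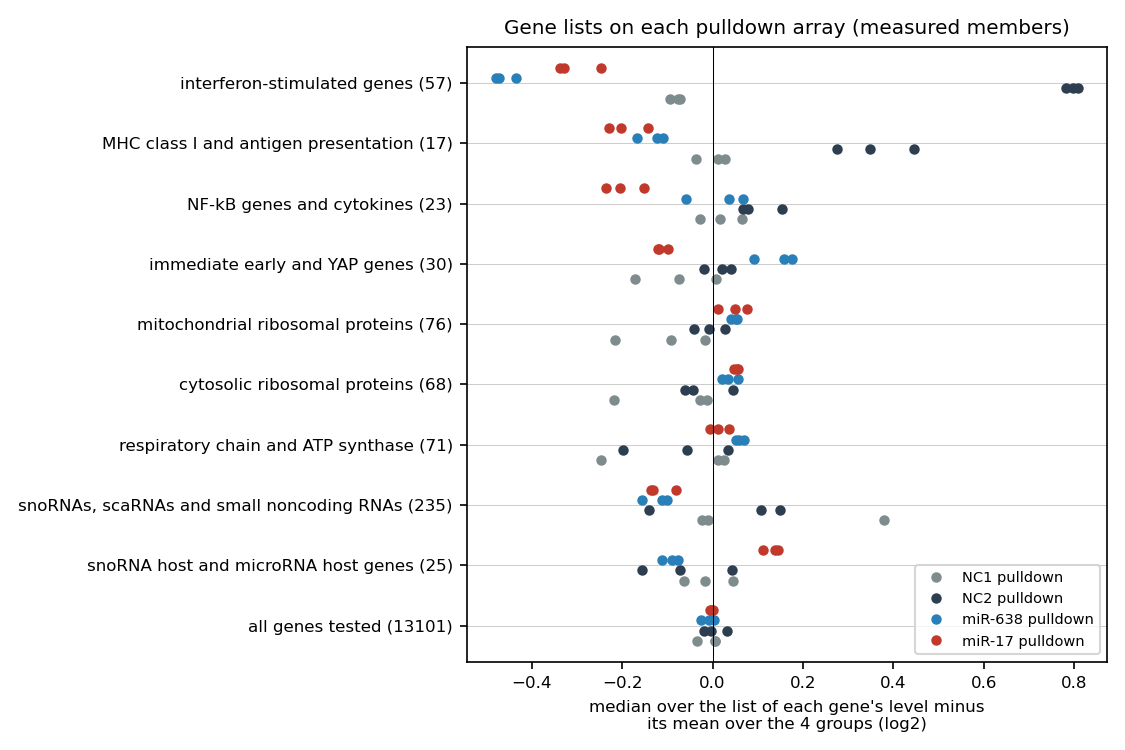
Median over each gene list of a gene's level minus its mean over the 4 groups (log2), 1 point per pulldown array, with the number of measured members in brackets. Interferon genes lie at 0.78 to 0.81 with NC2 and below 0 elsewhere; snoRNA and microRNA host genes lie above 0 only on the miR-17 arrays and on 1 array of each control.

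Some inflammatory genes that are not interferon markers were also lower. Of 23 NF-kB genes and cytokines 4 fell (17.4%), 2 rose (8.70%) and 17 did not pass. CXCL8, the neutrophil chemokine IL-8, read 10.38, 10.53 and 10.14 with miR-17, 10.86, 11.72 and 10.95 with NC1, and 11.43, 11.86 and 11.49 with NC2 (log2 difference -1.03, adjusted p = 0.000799). IL6 read 8.03, 8.30 and 8.11 with miR-17 and 8.83 to 9.52 in the controls (-0.92). Without both control arrays numbered 2 the differences of CXCL8 and IL6 were -0.84 and -0.78. Both lay below all control arrays and differed from the miR-638 pulldown by -0.85 and -0.75. CXCL1, a chemokine of the same family as CXCL8, went the other way, at 9.11, 8.73 and 8.85 with miR-17 against 7.46 to 8.48 in the controls (0.82).

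Other large decreases fall in no single list. CYBRD1, a ferric reductase of iron uptake, read 9.89, 9.69 and 9.70 with miR-17, 11.16, 11.09 and 11.14 with NC1, and 11.06, 11.34 and 11.34 with NC2, a 2.69-fold difference with little spread (log2 -1.43, SE 0.09, adjusted p = 2.19e-07). FYCO1, an adaptor that moves autophagosomes along microtubules, read 8.95, 8.94 and 9.14 with miR-17 against 10.18 to 10.54 in the controls (-1.33). Both were also lower than with miR-638, by -1.30 and -1.14. STC1, a secreted glycoprotein, gave -0.99. For DST, a linker of the cytoskeleton, the probe of highest mean gave -2.00, but its 5 probes ranged from -2.00 to 0.12, and that probe was detected on only 1 of 3 miR-17 arrays (-1.70 without both control arrays numbered 2). For MX1, MX2, IFI27, DDX60L, PARP9 and PLSCR1 the difference from miR-638 did not pass. Of the 15 largest decreases only 5 were also lower than with miR-638 past the test, whereas all 15 of the largest increases were also higher.

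Enriched RNAs of the cell's metabolism and protein synthesis included some that encode mitochondrial proteins. Of 76 mitochondrial ribosomal protein genes 17 were higher (22.4%) and 2 lower (2.63%), and 13 were higher against each control (17.1%, against 4.05% of all genes). MRPS35 read 10.24, 10.24 and 10.33 with miR-17 and 9.04 to 9.59 in the controls (log2 difference 0.92), and MRPL19 read 10.56, 10.69 and 10.63 against 9.54 to 10.28 (0.72). MRPS24 was higher by 0.66 and MRPL55 by 0.54. The median of the list was 0.10, and 57 members did not pass. Of the 76, 1 was higher and 1 lower in the authors' value table. By array, as deviations from the 4 groups, the medians of this list with miR-17 (0.012 to 0.076) lay above those with NC1 (-0.216 to -0.017). They overlapped those with NC2 (-0.041 to 0.027) and with miR-638 (0.041 to 0.054). Of 71 respiratory chain and ATP synthase genes 9 were higher (12.7%, against 8.27% of all genes) and 1 lower. NDUFB11, a complex I subunit, was far ahead of them, at 11.12, 11.09 and 11.12 with miR-17, 9.58, 9.32 and 9.49 with NC1, and 9.63, 9.50 and 9.25 with NC2 (1.65, SE 0.09, adjusted p = 5.68e-08). COX5B, a subunit of cytochrome c oxidase, was higher by 1.07, COX5A by 0.50 and COX4I1 by 0.49. Leaving out 1 array at a time gave 8 to 13 higher respiratory chain genes. The median of that list was 0.07, and -0.02 to 0.13 over the alternatives. Taken by array as deviations from the 4 groups, its medians with miR-17 (-0.006 to 0.037) overlapped those of the controls (-0.246 to 0.035). They lay below those with miR-638 (0.051 to 0.069).

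Of 68 cytosolic ribosomal protein genes 9 were higher (13.2%), a count of 5, 5 and 6 without miR-17 array 1, 2 or 3, and of 15 and 14 without NC1 array 3 or NC2 array 1. The named members moved little: RPL37A by 0.58, RPS24 by 0.44, RPLP1 by 0.41 and RPS23 by 0.35. Such genes have many processed pseudogenes, and a probe may read several copies. Of 53 translation initiation factors and their regulators 7 were higher (13.2%) and 4 lower (7.55%), with a median of -0.02; against NC2 alone 5 were higher and 6 lower. EIF4EBP2, which holds back the cap-binding protein, read 9.66, 9.46 and 9.55 with miR-17 and 8.33 to 8.67 in the controls (1.05). EIF4E, the cap-binding protein itself, read 7.87, 7.97 and 8.28 with miR-17 and 6.88 to 7.64 over the control arrays (0.83), with 0.76 from its other probe. EIF4G2, which is reported to act in cap-independent translation, was higher by 0.51.

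Among genes of vesicle traffic 10 of 56 were higher (17.9%) and 4 lower (7.14%), 6 of the former against each control. VPS26A and VPS35, subunits of the retromer that returns receptors from endosomes, were higher by 0.85 and 0.62. VAMP3 and STX3, which fuse vesicles with membranes, were higher by 0.66 and 0.61. The kinesins and dyneins, a separate list, did not follow: 2 of 44 were higher (4.55%, against 8.27% of all genes). Lower were 4 of them (9.09%, against 6.03%), and the median was -0.05. DYNLT1 and DYNLL2, light chains of the dynein motor, read 12.22, 11.96 and 12.06 and 10.37, 10.35 and 10.49 with miR-17, above all their control arrays (1.13 and 0.81). KIF5C, a kinesin, was lower by 0.71.

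Of 54 mitosis genes 8 were higher (14.8%, against 8.27% of all genes) and 2 lower (3.70%); the higher count was 5, 5 and 4 without miR-17 array 1, 2 or 3 and 5 without NC2 array 3. CCNB1, the cyclin of mitotic entry, read 11.16, 11.36 and 11.26 with miR-17, 10.43, 10.30 and 10.47 with NC1, and 10.63, 10.80 and 10.75 with NC2 (0.70, adjusted p = 3.87e-05). CDC25C, the phosphatase that activates it, was higher by 0.68, BIRC5, which is survivin, by 0.53 and PTTG1, which is securin, by 0.46. Genes of DNA replication went both ways, with 6 of 46 higher (13.0%) and 9 lower (19.6%); the lower count was 1, 3 and 4 without miR-17 array 1, 2 or 3, and the higher count 3, 4 and 4. The direction of some depended on the control: DUT, which removes dUTP, was 0.73 above NC1 and -0.06 from NC2 (adjusted p = 0.734). Of 25 p53 targets 5 were higher and 3 lower, where 8.27% and 6.03% of all genes were; without miR-17 array 2 only 1 was higher, and without any other single array 3 or 4. CDKN1A and TP53INP1 are among the higher, and TNFRSF10B, the death receptor DR5, among the lower, at -0.58.

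In lipid synthesis only 2 of 30 genes were higher (6.67%), near the share of all genes. MSMO1, a sterol oxidase of cholesterol synthesis, was one: 11.88, 11.87 and 11.85 with miR-17 against 10.24 to 10.55 in the controls (1.44, SE 0.08, adjusted p = 4.49e-08), although its 3 probes ranged from 0.19 to 1.44. Zinc finger genes as a class did not stand out, with 40 of 442 higher (9.05%) and 31 lower (7.01%). Beside ZNF77, the named ones were ZNF138 (1.41, with 0.36 from its other probe), ZNF443 (1.24) and ZBTB5 (1.05). Of 199 solute carriers 19 were higher (9.55%) and 15 lower (7.54%). Of 29 genes of the NRF2 response and iron 4 were higher (13.8%), AKR1B10, an aldo-keto reductase, by 0.89. FTL, the ferritin light chain, gave 0.09 (adjusted p = 0.559), and the ferritin heavy chain pseudogene FTH1P3, whose probe may also read the parent gene, gave 0.33 (adjusted p = 0.0165), 0.26 against NC2 alone (0.0962).

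**Figure D5:**
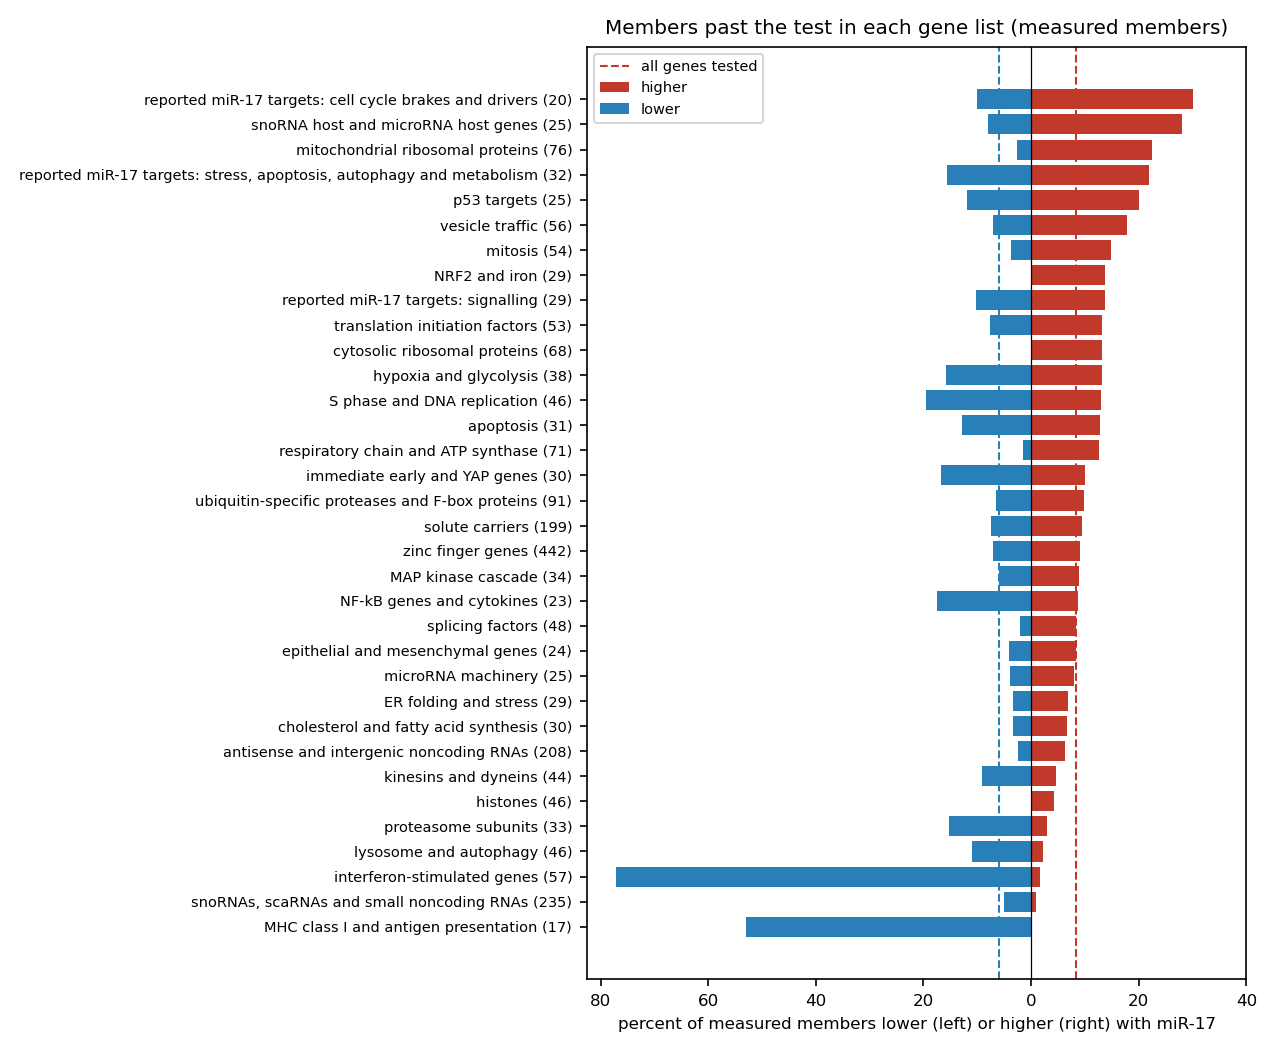
Percent of the measured members of each gene list that were lower (bars to the left, blue) or higher (bars to the right, red) with miR-17 than in both controls; dashed lines mark the shares of all genes tested, 6.03% and 8.27%. The target list of cell cycle brakes and drivers reaches 30.0% higher, interferon genes 77.2% lower.

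By class of RNA, 1035 of 12238 protein-coding genes were higher (8.46%) and 749 lower (6.12%), and 26 of 329 long noncoding RNA genes were higher (7.90%) and 12 lower (3.65%). Host genes of snoRNAs and microRNAs were higher in 7 of 25 cases (28.0%) and lower in 2; without miR-17 array 1, 2 or 3 the higher count was 4, 4 and 5. ZFAS1, a spliced host of snoRNAs, read 13.66, 13.63 and 13.56 with miR-17, 12.76, 12.71 and 12.78 with NC1, and 12.91, 12.79 and 12.59 with NC2 (0.86, adjusted p = 2.1e-06), and was 1.27 above miR-638. SNHG32 was higher by 0.50 and DANCR by 0.46, each above all control arrays. SNHG10, at 6.18, 6.22 and 6.58 against 4.52 to 5.63, was higher by 1.18, and was not separated from miR-638 (-0.02, adjusted p = 0.982). H19, an imprinted noncoding RNA, was detected on all 3 miR-17 arrays and on no control array, and was at least 1.47-fold higher (adjusted p = 0.00159). Of the groups compared only the miR-17 arrays counted towards the detection filter for H19, and its p-value rests on control values not above background. The antisense transcript UBE2D3-AS1 was higher by 1.11; a probe on the array reads 1 strand, and the strand was not checked here.

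The snoRNAs themselves, which are nuclear and not polyadenylated, were lower about as often as other genes: of 139 tested 9 were lower (6.47%, against 6.03% of all genes). Higher were 0 of them, against 8.27% of all genes, and the median was -0.33 beside 0.00 for all genes. Their values move with the control arrays numbered 2. SNORA25 read 7.69, 7.69 and 7.55 with miR-17, 9.03, 11.20 and 8.62 with NC1, and 9.02, 10.14 and 8.70 with NC2. The arrays numbered 2 are the highest of each control, but the others also lie above the miR-17 arrays. The log2 difference was -1.81 with all arrays and -1.20 without both arrays numbered 2. For MIR181A2HG these values were -1.69 and -1.07, for SNORA32 -1.57 and -1.03, and for SCARNA9 -1.43 and -0.88. The calls of SNORA25 and MIR181A2HG were lost when any 1 miR-17 array was left out. Of 235 small noncoding RNAs 12 were lower (5.11%, against 6.03% of all genes); 23 were without both arrays numbered 2, 24 with the replicate number as a block, 2, 4 and 4 without miR-17 array 1, 2 or 3, 20, 24 and 21 without NC1 array 1, NC1 array 3 or NC2 array 3, and 3 of 210 in the authors' value table. SNORA25 (-0.02), SNORA32 (0.07) and MIR181A2HG (-0.54) did not differ past the test from the miR-638 pulldown.

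Ribosomal RNA was lower as well. RNA28SN5, the large subunit RNA, read 6.10, 6.72 and 7.06 with miR-17, 8.30, 9.50 and 8.23 with NC1, and 8.65, 8.38 and 9.14 with NC2. Its log2 difference was -2.07 (SE 0.38, adjusted p = 0.0025), the largest decrease among the genes named by the rule, and -0.94 from its other probe; without both control arrays numbered 2 it was -1.94. RNA18SN5, of the small subunit, read 8.61, 8.67 and 8.38 with miR-17 against 9.53 to 10.79 in the controls (-1.42; -1.22 without both arrays numbered 2). RN7SL1, the RNA of the signal recognition particle, fell by 0.35, against each control. Ribosomal RNA exists in many near-identical copies, which a probe cannot tell apart, and its level differed from group to group as given here; the part of ribosomal RNA carried over in the other differences was not tested.

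The miR-17 pulldown was also compared with that of another microRNA, miR-638; the miR-17 arrays are the same as in the comparisons above. Against miR-638, 1104 genes differed (8.43%): 673 genes were higher with miR-17 (5.14%) and 431 lower (3.29%). Of the 81 reported targets 18 were higher and 6 lower. By the naming rule, the largest difference was SLC25A23, a mitochondrial carrier, at 12.91, 13.00 and 12.87 with miR-17 and 10.21, 10.28 and 10.20 with miR-638, with the controls between them at 11.07 to 11.83 (log2 difference 2.70, SE 0.11, adjusted p = 1.4e-08). U2AF1, a splicing factor, was likewise 2.01 above miR-638 and 0.55 above the controls; it has a near-identical copy in the genome. ZNF77 (2.58), NABP1 (2.42) and USP12 (2.36) also lay far above miR-638. Lower than with miR-638 were H4C3 (-1.51), CTSZ (-1.47), LRRC26 (-1.39), FAU (-1.29) and RTL8C (-1.28), of which RTL8C was higher than the controls (0.45) and the other 4 were not past the test against them.

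The RNAs enriched against each control are described here by genomic span, which the comparison did not use, and by level, which it did. Among protein-coding genes, by RefSeq coordinates, the 507 enriched ones spanned a median of 16.5 kb of genome (quartiles 7.80 and 41.0), the 193 lower ones 38.7 kb (first quartile 19.8) and all 12238 tested 29.7 kb (11.8 and 71.8). The control level was 9.45 in the median for the enriched genes, 10.47 for the lower ones and 8.53 for all. The share of genes higher was 3.85%, 8.21%, 10.9% and 10.1% over 4 bins of genes from the lowest to the highest control level, and the share lower 1.31%, 3.82%, 6.78% and 12.2%. The median standard error fell from 0.179 to 0.085 over the same bins, so dim genes needed a larger difference to pass. These are descriptions without a test; genomic span includes introns and is not the length of the message.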

How the data were processed

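The authors deposited a signal table, whose values are linear intensity per Illumina probe (background-subtracted, from values below 0), with a detection p-value beside each per the file headers, and a value table on a log2 scale, floored at 4; how either was processed is not given in the sources used here. The NC1 and NC2 pulldown columns carry each other's names in these deposited tables. Values here follow the signal table, which leaves unsettled which control is NC1 and which is NC2; only the mean of both controls, and passing against each, do not depend on it. The 12 pulldown arrays were corrected and quantile-normalized with neqc (offset 16, background from the detection p-values; limma 3.58.1, R 4.3.3). A probe was kept if its detection p was below 0.05 on 3 or more arrays (23742 probes). Genes with several probes were represented by the brightest, leaving 13101 genes; 6075 kept probes had no single gene name in the platform annotation. A level is the resulting log2 value. The 4 pulldown groups were fitted together with lmFit and eBayes, with a variance trend. All p-values of genes are two-sided, with Benjamini-Hochberg adjustment over all 13101 genes. The number of arrays limits the precision. The fit was checked on simulated data with known changes.

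The comparison, gene lists and naming rule were chosen with earlier results of these data known. Named are the 15 largest changes each way past the test against each control with separate arrays; reported targets past the test and a few others as values; the core microRNA machinery; up to 4 members of each other list; the largest differences from miR-638; ferritin genes; and noncoding RNAs. Members given as values outside that rule (E2F1 to E2F3, CCND1, RB1, TGFBR2, SMAD4, SMAD7, BMPR2, BCL2L11 and the cell type markers) were chosen after their values were seen. Where a group was not above background, the bound sets the bright group's mean against, per array, the higher of the lowest detected signal and the dim probe's own. Placeholder names are not reported here. The alternatives tried changed the background correction, normalization, offset, detection filter, probe choice, variance model, array weights, source table and arrays used.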

Additional observations from a re-analysis of the deposited data

Results flagged for a closer look

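Probes with no single gene name were tested with the same model, outside the gene comparisons, probe by probe with adjustment over all 23742 kept probes. Of 6075, 310 were higher with miR-17 than in both controls and 250 lower by the adjusted limma test. Of the genes tested 8.27% were higher and 6.03% lower, so smaller shares of these probes passed. They were flagged because they hold signal above the controls that the gene comparisons leave out, and they are not named here.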

How the results depend on the processing

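None of the 173 called genes named by the rule changed sign against both controls under the 22 alternatives. The balance of calls did turn for NC2 against NC1, from 401 higher and 213 lower to 4 and 11 with the authors' value table (11 and 4 with its control names exchanged). Of the 173 genes 63 stayed past the test in every alternative that measured them, among them USP12, NABP1, CDKN1B, AGO1 and MX1; 99 were lost with the authors' value table and 49 in another alternative. Calls by array weights were 2860 against both controls, 2814 against NC1, 1110 against each control and 2441 against miR-638. The authors' value table gave 317 against both controls (185 higher, 132 lower), 188 against NC1, 340 against NC2, 95 against each, 162 against miR-638 and 15 for NC2 against NC1; exchanging its control names gave 317, 340, 188, 95, 162 and 15. That table called at most 1 higher member among the p53, DNA replication, mitosis, NF-kB and both ribosomal protein lists. The cause was not tested; 718 genes at its floor on all pulldown arrays were left out. Fitting only the groups compared gave 2632 against miR-638 and 101 for NC2 against NC1. Leaving out both control arrays numbered 2, an alternative chosen after seeing the data, gave 2251 against NC2, 1111 against each control and 2255 against miR-638. Leaving out 1 array at a time gave 981 to 2158 calls against both controls, 1029 to 1978 against NC1, 844 to 2264 against NC2, 428 to 912 against each control, 646 to 1563 against miR-638 and 312 to 905 for NC2 against NC1. Without miR-17 array 1, 2 or 3 the count against both controls was 981, 1007 and 1018; against NC1 1029, 1072 and 1048; against NC2 844, 880 and 878; against each control 428, 445 and 442; and against miR-638 646, 660 and 696. The count against NC2 was 2264 without NC1 array 2 and 964 without NC2 array 3, and that of NC2 against NC1 was 368 without NC1 array 1 and 312 without NC2 array 3.

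With the replicate number as a replicate block 1865 genes were called against both controls and 736 against each control. Between a miR-17 and a control array with 1 number in common, residuals had correlations from -0.07 to 0.11, so the numbers do not pair them. Between NC1 and NC2 arrays of 1 number they were 0.122, 0.418 and 0.555, all over 0.1. Between NC1 and NC2 arrays of different numbers they ran from -0.515 to 0.4. These ranges overlap, so whether the controls are paired by number is not settled. NC2 against NC1 gave 579 calls with the block and 614 without. The block moved the lower small noncoding RNAs from 12 to 24, and the share of all genes lower from 6.03% to 6.16%. Median scaling gave 1215 higher and 586 lower against both controls. Dim probes limit the result: with 3 arrays a group, fewer of them passed.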
